A study of Mus musculus with 2 samples.

Results

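The sodium-dependent cotransporters of the Slc5 family were followed here in adult mouse kidney, as 10 genes of the 43346 in the deposited gene tables. Members were the rows whose identifiers map to Slc5a1, Slc5a2, Slc5a4a, Slc5a4b, Slc5a6, Slc5a8, Slc5a9, Slc5a10, Slc5a11 and Slc5a12. This rule uses no measured value, though earlier results of these data were known when it was set. The members are carriers of glucose and of other sugars, and also of inositol, of vitamins and of monocarboxylates, so not every one is a glucose carrier. The other Slc5 genes, Slc5a3, Slc5a5 and Slc5a7, were kept apart as a list of 3 genes.

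The tissue was kidney of 8-week-old adults of C57BL/6J, an inbred mouse strain. There was 1 group, adult kidney, with 2 libraries numbered as biological replicates 1 and 2, and no treatment or second genotype. Each library was made from rRNA-depleted polyadenylated RNA above 200 nt with spike-in RNA, and was read as stranded pairs of 76 bases on an Illumina GAIIx. The labels describe tissue of pooled male and female littermates, give the health state as unknown, and carry 1 donor label for both libraries. Every SD therefore measures the spread between these libraries only, which may be technical.

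Both libraries went against their sex label. Of 4 Y-linked genes, 3 had no count in either library and Kdm5d had 3 counts in replicate 2 and none in replicate 1, while Xist, the RNA that coats the inactive X chromosome, stood at 26.8 and 31.4 TPM. Since this held for both libraries, no value could be given without them. TPM, a share of all transcripts scaled to a fixed sum, is a level corrected for transcript length, and levels of different genes are compared below only in TPM.

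Depth was 67252609 expected counts over genes in replicate 1 and 87330097 in replicate 2. Mitochondrial genes held 11.2% of the TPM in replicate 1 and 17.9% in replicate 2. General proximal tubule markers were detected, 4 of 4, with Slc34a1 at 5821 and 4317 TPM. Markers of some tissues outside the kidney differed between the libraries, and those of others did not. The summed level of 4 skeletal muscle markers was 2.02 TPM in replicate 1 and 655 in replicate 2, that of 4 lymphocyte markers was 2.26 and 25.7 TPM, and that of 4 adrenal cortex markers was 36 and 0.550 TPM. All 12 of these markers differed between the libraries by the test described below. The 1 marker of brown fat stood at 196 TPM in replicate 1 and 246 TPM in replicate 2, and was not called different. The 3 liver markers summed to 10.7 and 9.75 TPM, and none was called different.

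Slc5 cotransporters couple the entry of a solute to the entry of sodium, which the sodium pump of the basolateral membrane then removes. In the kidney they sit mainly on the brush border of the proximal tubule and take filtered solutes back from the urine. SGLT2, the product of Slc5a2, recovers most of the filtered glucose in the early proximal tubule, and SGLT1, the product of Slc5a1, recovers what remains in the late part; SGLT2 is the target of the gliflozin drugs for diabetes.

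Slc5a2 was the highest member, followed by the sugar carrier Slc5a10 and the monocarboxylate carrier Slc5a12. A gene was called detected at 1 TPM or more in both libraries, and 8 of the 10 members met that, where 30.2% of all genes did. The exceptions were Slc5a4a and Slc5a4b, the SGLT3 pair. Summed over the 10 members, the level was 1633 TPM in replicate 1 and 1231 TPM in replicate 2. Slc5a2 alone made up 49.8% and 53.7% of that sum.

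Slc5a2 (GRCm38 chr7:128265657-128272430, plus strand) stood at 814 TPM in replicate 1 and 661 TPM in replicate 2, or 737 ± 108 TPM (SD, n = 2). Its mean ranked 147 among all 43346 genes. The protein-coding genes with levels most like it over the 2 libraries, by distance in log2(TPM + 1), were Ndufs7 at 803 and 663 TPM, Gstm1 at 797 and 659 TPM, and Cyc1 at 793 and 665 TPM. With 2 libraries of 1 tissue this is a likeness of level and not of pattern across conditions.

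Slc5a1 (chr5:33104219-33162870, plus strand) stood at 30.8 and 20.6 TPM, or 25.7 ± 7.21 TPM (SD, n = 2), rank 4125. The ratio of Slc5a2 to Slc5a1 was 26.4 in replicate 1 and 32.1 in replicate 2, a mean of 29.2 ± 4.0 (SD, n = 2). Per expected count, with no correction for length, the same ratio was 12.9 and 15.8. The Slc5a1 transcript is the longer one, with an effective length of 3901 bases in replicate 1 against 1899 bases for Slc5a2. In bulk tissue, fewer cells of a type and less RNA per cell cannot be told apart, so these ratios describe the whole kidney and not a tubule cell. SGLT1 is also the main glucose carrier of the small intestine, and of 5 intestinal markers Fabp2 and Sis had no count in either library, Alpi had 1 and 0 counts, Lct had 8 and 11 counts, and only Mttp was detected, at 4.28 and 4.15 TPM.

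Slc5a4a and Slc5a4b, neighbours on chromosome 10 whose products are the SGLT3 proteins, were at or near the floor of the measurement. Slc5a4b (chr10:76057494-76110961, minus strand) had 9 counts in replicate 1 (95% exact Poisson interval 4.12 to 17.1) and 11 in replicate 2 (5.49 to 19.7), which is 0.060 and 0.050 TPM. Slc5a4a (chr10:76147451-76189265, plus strand) had 0 counts in both libraries, and a limit of 3 counts allows a level of up to 0.0302 TPM in replicate 1 and 0.0217 TPM in replicate 2. These limits and intervals cover counting error only. The coding sequences of the pair were equal at 80.0% of aligned bases, the closest pair among all members, and Slc5a1 was equal to Slc5a4b at 74.0% and to Slc5a4a at 73.3%.

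Likeness of sequence left few places where a read could belong to both SGLT3 genes. Of the 31-base words in their transcripts they shared 40, which is 1.98% of those of Slc5a4a and 1.27% of those of Slc5a4b. Of the 76-base words, the length of a read, they shared 0. Over all other genes, Slc5a4b shared 224 of its 3150 31-base words (7.11%) and 0 of its 76-base words. The longest run common to the SGLT3 pair is shown because it is the longest stretch that could not be assigned to either gene by its letters. It is 50 bases long, lies in the coding part of both genes and spans a splice junction, so that its first base is chr10:76176626 and the rest chr10:76178090-76178138 in Slc5a4a, and chr10:76072428 and chr10:76070606-76070654 on the minus strand in Slc5a4b. It is printed 5′ to 3′ in capitals, since every base is shared.
Slc5a4a and Slc5a4b: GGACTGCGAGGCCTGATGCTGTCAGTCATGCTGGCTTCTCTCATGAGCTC

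Slc5a10 and Slc5a9 encode SGLT5 and SGLT4, which carry mannose and fructose. Slc5a10 (chr11:61672781-61720826, minus strand) was the second highest member, at 379 TPM in replicate 1 and 231 TPM in replicate 2, or 305 ± 105 TPM (SD, n = 2), rank 398. Slc5a9 (chr4:111875375-111902918, minus strand) stood at 37.1 and 23.8 TPM, or 30.5 ± 9.41 TPM (SD, n = 2). Both were lower in replicate 2, and the ratio of Slc5a10 to Slc5a9 was 10.2 and 9.68, a mean of 9.94 ± 0.373 (SD, n = 2).

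Slc5a11 (chr7:123214780-123273253, plus strand) encodes SMIT2, which carries myo-inositol and chiro-inositol. It stood at 99.2 and 67.2 TPM, or 83.2 ± 22.6 TPM (SD, n = 2). Slc5a3, the gene of the other inositol cotransporter SMIT1, which cells use to take up inositol as an osmolyte, stood at 13.2 and 11.6 TPM. Slc5a11 was therefore 7.52 times as high as Slc5a3 in replicate 1 and 5.78 times as high in replicate 2. The remaining Slc5 genes were low: the iodide carrier gene Slc5a5 stood at 0.240 and 0.120 TPM, and the choline carrier gene Slc5a7 had 0 counts in both libraries.

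Slc5a6 (chr5:31036036-31048924, minus strand) encodes SMVT, the carrier of biotin, pantothenate and lipoate. It stood at 93.5 and 54.0 TPM, or 73.7 ± 27.9 TPM (SD, n = 2). This level rested on a short transcript: a 568-base model held 55.4% of the gene's TPM in replicate 1 and 52.0% in replicate 2, but 13.8% and 12.6% of its counts. Over transcripts of 1000 bases or longer, a limit chosen after seeing the data, the mean of Slc5a6 was 31.9 TPM.

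Slc5a12 and Slc5a8 encode SMCT2 and SMCT1, the low- and high-affinity carriers of lactate, pyruvate and other monocarboxylates. Slc5a12 (chr2:110597298-110647779, plus strand) stood at 160 and 157 TPM, or 159 ± 1.95 TPM (SD, n = 2), rank 816. Slc5a8 (chr10:88885992-88929515, plus strand) stood at 19.7 and 16.7 TPM, or 18.2 ± 2.10 TPM (SD, n = 2). Slc5a12 was 8.12 times as high as Slc5a8 in replicate 1 and 9.40 times as high in replicate 2.

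By mean TPM the order was Slc5a2, Slc5a10, Slc5a12, Slc5a11, Slc5a6, Slc5a9, Slc5a1, Slc5a8, Slc5a4b and Slc5a4a, and each library gave this order for every neighbouring pair. Library values overlapped between Slc5a11 and Slc5a6, and between Slc5a9 and Slc5a1, so these neighbours did not differ beyond their spread. The other neighbours had values that lay apart, though with 2 libraries no exact test of such a difference can reach 0.05. Of the neighbours that lay apart, Slc5a1 and Slc5a8 were close, at 1.56 and 1.23 times. Slc5a11 exceeded Slc5a6 by 1.06 and 1.25 times. Part of this order rests on short transcript models. Over transcripts of 1000 bases or longer, Slc5a6 stood at 39.5 and 24.3 TPM, apart from Slc5a11 at 99.2 and 64.0 TPM. Slc5a9 then stood at 27.7 and 19.4 TPM, below Slc5a1 in both libraries, the ranges of Slc5a6, Slc5a1 and Slc5a9 overlapped, and that of Slc5a9 also overlapped the 19.7 and 16.7 TPM of Slc5a8.

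**Figure D1:**
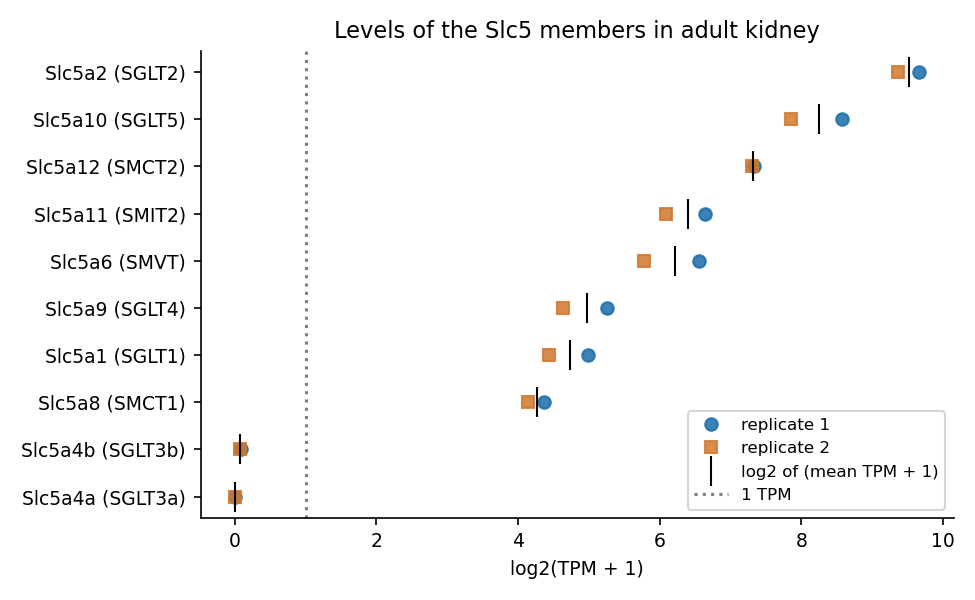
Level of each Slc5 member as log2(TPM + 1) on the horizontal axis, with replicate 1 as circles, replicate 2 as squares, the mean as a bar and 1 TPM as a dotted line. Slc5a2 lies at the top with 814 and 661 TPM, and Slc5a4b and Slc5a4a alone lie below 1 TPM.

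The libraries were compared gene by gene on rounded expected counts with a two-sided exact binomial test. The expected share came from library sizes scaled with edgeR's trimmed mean of M values (TMM), and p-values were adjusted by Benjamini-Hochberg over the 18723 genes with 10 or more counts in sum. A gene was called different at an adjusted p below 0.05 and an absolute log2 ratio of 1 or more. The test compares the reads of these libraries, covers counting error only, and says nothing of conditions.

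None of the 9 members tested was called different between the libraries by this binomial test, where 8.21% of all tested genes were called and 1.87% of those detected in both libraries. The count was also 0 with DESeq2 size factors and with library totals. Without the limit on the ratio, 8 of the 9 members were below 0.05 both before and after adjustment, where 57.5% of all genes were below it after adjustment. The member that was not was Slc5a4b, at a log2 ratio of -0.01 (95% exact interval -1.42 to 1.44), so its few counts leave a wide range.

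Most members were lower in replicate 2. The log2 ratio of replicate 2 to replicate 1 was below 0 for 7 of the 8 detected members, where 48.8% of detected genes were below 0. Its median was -0.38 over these members and 0.01 over all 13108 detected genes, and its median size without regard to sign was 0.377 and 0.192. Slc5a6 had the lowest ratio, -0.55 (95% exact interval -0.60 to -0.50), followed by Slc5a10 at -0.54 (-0.56 to -0.52). Of the detected genes, 9.65% had a larger absolute log2 ratio than Slc5a6, and 3.17% had a lower ratio.

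Among the other members the ratio was -0.42 for Slc5a11, -0.41 for Slc5a1, -0.35 for Slc5a9, -0.12 for Slc5a2 and -0.07 for Slc5a8. For the glucose pair Slc5a2 and Slc5a1, these are ratios of scaled counts of 0.923 and 0.753. Slc5a12 was the only detected member above 0, at 0.18 (95% exact interval 0.16 to 0.21). On the TPM scale with a pseudocount of 1 its sign turned, to -0.02. The other detected members also had lower ratios on that scale, as Slc5a2 did at -0.30. The effective length of Slc5a12 was 2434 bases in replicate 1 and 2506 in replicate 2, and the part of length in its change was not tested. All 8 detected members were higher in replicate 1 in TPM, where 72.1% of detected genes were.

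**Figure D2:**
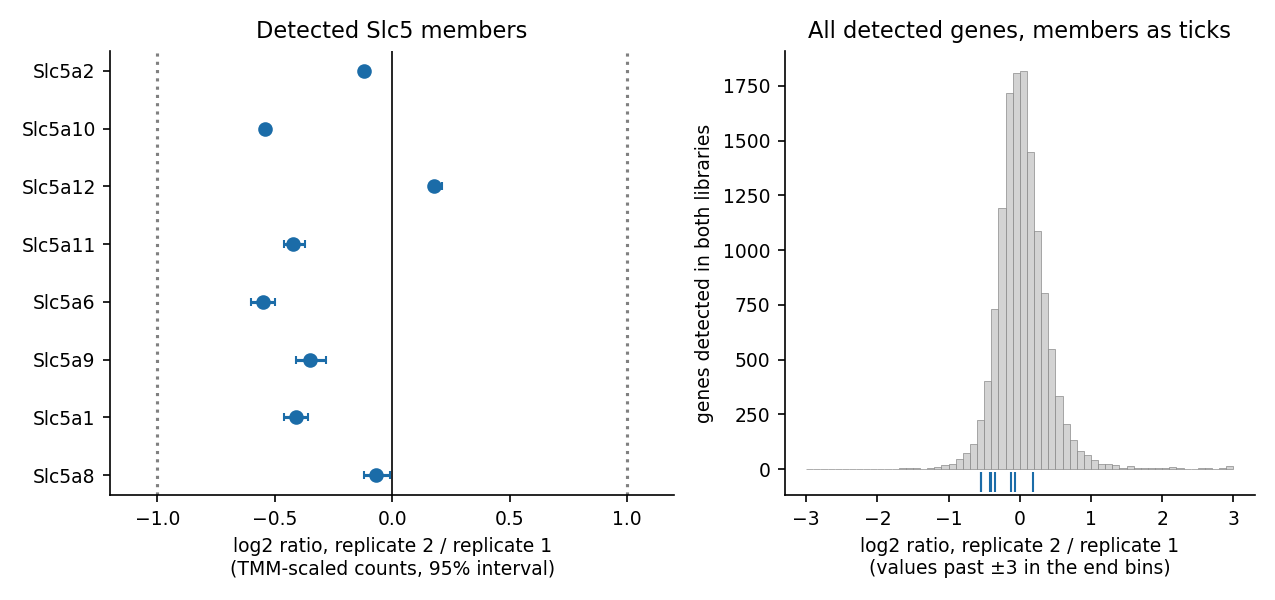
Left, log2 ratio of replicate 2 to replicate 1 for the 8 detected members, from TMM-scaled counts with 95% exact intervals, and dotted lines at the limits of -1 and 1. Right, the same ratio for all 13108 detected genes as a histogram, with the members as ticks: they lie between -0.55 and 0.18, and 3.17% of the genes lie below the lowest of them.

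Most markers of proximal tubule segments were also lower in replicate 2, though none was called different. The ratio of replicate 2 to replicate 1 was 0.887 to 1.07 over 4 markers of the early proximal tubule, where SGLT2 is known to act. It was 0.698 to 0.849 over 4 general markers, and 0.616 to 0.874 over 5 markers of the late proximal tubule. Of the late markers, Slc6a18 stood at 314 and 175 TPM and Atp11a at 209 and 117 TPM. Cyp7b1 was at only 1.64 and 1.13 TPM, and Slc7a13 at only 0.570 and 0.320 TPM. The summed level of the late list was 601 TPM in replicate 1 and 350 TPM in replicate 2, mostly from Slc6a18 and Atp11a. Genes of more distal segments were lower in replicate 2 too, with Umod of the thick ascending limb at 3204 and 1908 TPM and Slc12a3 of the distal convoluted tubule at 512 and 247 TPM. The part of tissue make-up in the ratios of the members was not tested.

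Genes that work beside the members were detected throughout, and none was called different between the libraries. Of the 12 partners of glucose reabsorption, 12 were detected, with a median log2 ratio of -0.03. Subunits of the sodium pump and of SGLT2 were among the highest. Fxyd2, a regulatory subunit of the pump, stood at 6012 and 5549 TPM, Pdzk1ip1, the accessory subunit MAP17 of SGLT2, at 3156 and 2423 TPM, and the pump's beta subunit Atp1b1 at 729 and 724 TPM. Among the lowest was the kinase gene Sgk1 at 56.4 and 50.6 TPM. Slc2a2, named after its values were seen because its product GLUT2 is the basolateral exit of glucose in the early proximal tubule, stood at 85.9 and 79.7 TPM.

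Some enzymes that handle the same sugars and inositol stood at higher levels than the carriers. Of the 6 genes of mannose and fructose handling, all were detected, with a median log2 ratio of -0.06. The ketohexokinase gene Khk, whose product begins fructose breakdown, stood at 882 and 830 TPM, and the sorbitol dehydrogenase gene Sord at 436 and 428 TPM. Slc2a5, whose product GLUT5 carries fructose without sodium, stood at 205 and 120 TPM, and the lowest were Mpi at 54.2 and 41.3 TPM and Hk1 at 46.7 and 40.5 TPM. All 5 genes of inositol handling were detected, with a median of -0.01. They ran from Miox, the renal oxygenase that begins inositol breakdown, at 6374 and 5174 TPM to the proton-coupled inositol carrier gene Slc2a13 at 1.27 and 1.00 TPM, with Isyna1, which makes inositol, at 107 and 76.7 TPM.

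All 7 genes of biotin and pantothenate handling were detected, with a median log2 ratio of -0.02. The biotin-dependent pyruvate carboxylase gene Pcx stood highest at 219 and 185 TPM, the biotinidase gene Btd at 103 and 78.6 TPM, and Hlcs, which attaches biotin to enzymes, lowest at 4.53 and 3.47 TPM. All 7 genes of monocarboxylate handling were detected, with a median of 0.08. The lactate dehydrogenase gene Ldhb stood at 1411 and 1368 TPM, Bsg, the chaperone of the proton-coupled carriers, at 704 and 546 TPM, and the carrier gene Slc16a1 lowest at 14.1 and 15.3 TPM.

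The members fell into groups by gene structure. In their main coding transcripts, Slc5a1, Slc5a4a and Slc5a4b had 12 exons of equal size in a row, from a 72-base exon to a 216-base exon, and so did Slc5a10 and Slc5a11. Slc5a9 shared a run of 8 exon sizes with Slc5a10 and Slc5a11. Slc5a2 and Slc5a9 had a single exon of 165 bases where Slc5a1, Slc5a4a, Slc5a4b, Slc5a10 and Slc5a11 had exons of 60 and 105 bases. The vitamin carrier Slc5a6 and the monocarboxylate carriers Slc5a8 and Slc5a12 had another layout, with 10 exon sizes in a row common to each pair of them.

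Coding sequences were equal at 61.4% to 80.0% of aligned bases over the 45 pairs, with a median of 65.8%. After the SGLT3 pair and their likeness to Slc5a1, the closest were Slc5a9 and Slc5a10 at 70.0%. The nearest gene to Slc5a11 was Slc5a10 at 69.0%, and the nearest to Slc5a2 was Slc5a1 at 68.4%. Slc5a8 and Slc5a12 were nearest to each other, at 66.1%. Slc5a6, which shares their exon layout, was by this share nearest to Slc5a4a at 65.9%, with 65.4% to Slc5a8 and 61.9% to Slc5a12. In number of equal bases Slc5a8 came before Slc5a4a, with 1130 of 1728 aligned against 1096 of 1663. Which of these is nearest to Slc5a6 thus depends on the measure. The alignments allowed gaps, which can raise these shares. A member and the one nearest to it in sequence could lie far apart in level, as Slc5a2 and Slc5a1 did at a ratio of 29.2. Slc5a1 itself was nearer to the SGLT3 pair than to Slc5a2.

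**Figure D3:**
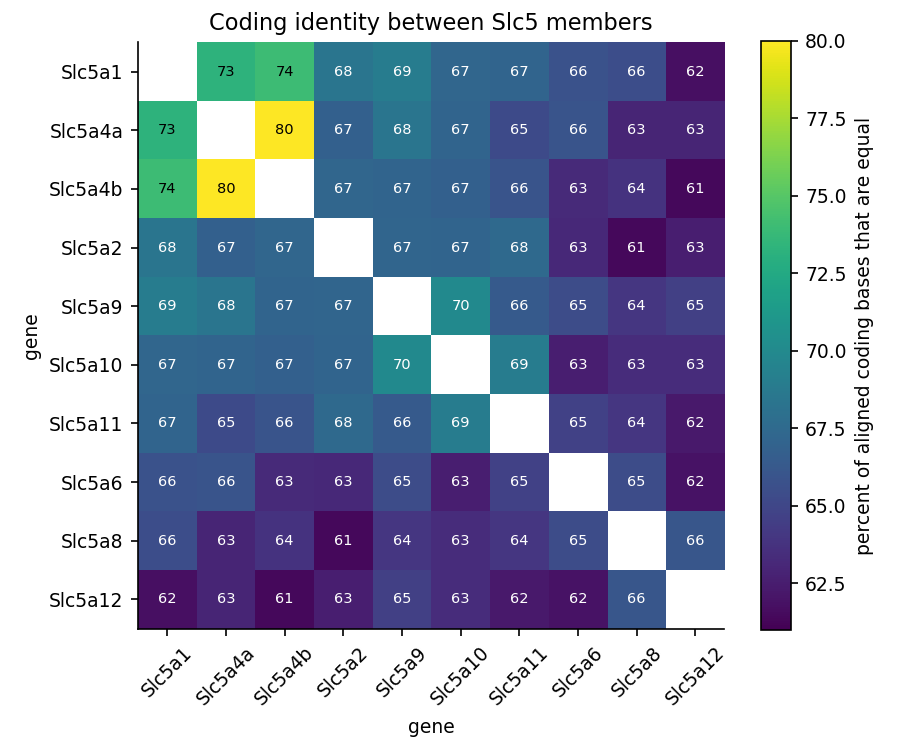
Percent of aligned coding bases that are equal for each pair of the 10 members, in colour and as rounded numbers, with genes on both axes. The SGLT3 pair Slc5a4a and Slc5a4b stands out at 80.0%. Slc5a1 follows, at 74.0% to Slc5a4b and 73.3% to Slc5a4a, and all other pairs lie at 70.0% or below.

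Transcript shares were read from the deposited isoform percentages, the share of a transcript in its gene's TPM. The members had 43 transcripts in the tables. Slc5a1, Slc5a4a, Slc5a4b and Slc5a8 had 1 each, and the other 6 members had several. Short transcripts weigh more in TPM than in counts, so shares of counts stand beside those of TPM.

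Slc5a2 was expressed almost wholly as its full-length coding transcript. Slc5a2-202, of 14 exons, held 89.3% of the gene's TPM in replicate 1 and 90.1% in replicate 2, and 97.4% and 97.6% of its counts. Next came Slc5a2-208, a 771-base model with a retained intron, at 5.67% and 4.63% of TPM and 1.69% and 1.39% of counts. The pair of transcripts annotated as targets of nonsense-mediated decay held 2.97% and 3.12% of TPM, and 0.440% and 0.462% of counts.

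Slc5a10 had a leading coding transcript, Slc5a10-203, at 85.7% and 89.6% of TPM and 86.1% and 89.9% of counts. A second, Slc5a10-204, held 11.6% and 8.77% of TPM, and 10.9% and 8.23% of counts (4053 and 2604). Slc5a10-204, whose model is incomplete, lacks an 81-base exon in the middle of the coding part. The length of that exon is a multiple of 3. An exon of the same size stands at the same place in Slc5a9 and Slc5a11, and also in Slc5a1, Slc5a2, Slc5a4a and Slc5a4b. Only the exons of Slc5a10, Slc5a9 and Slc5a11, where the next exon is also of equal size, were compared. The 45 bases equal in all, printed in capitals below, refer to these compared exons only. The Slc5a10 exon is shown because its absence is one of the differences between the leading Slc5a10 transcripts, whose models also differ elsewhere. The exons lie at chr11:61709279-61709359 (minus strand) for Slc5a10, chr4:111890935-111891015 (minus strand) for Slc5a9 and chr7:123252413-123252493 (plus strand) for Slc5a11 on GRCm38, and are printed 5′ to 3′ from GENCODE M21 with the 45 bases that are equal in all in capitals.
Slc5a10: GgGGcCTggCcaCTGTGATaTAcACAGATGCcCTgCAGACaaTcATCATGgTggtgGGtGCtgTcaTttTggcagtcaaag
Slc5a9: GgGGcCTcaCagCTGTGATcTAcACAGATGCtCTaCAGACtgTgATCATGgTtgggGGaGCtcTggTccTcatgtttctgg
Slc5a11: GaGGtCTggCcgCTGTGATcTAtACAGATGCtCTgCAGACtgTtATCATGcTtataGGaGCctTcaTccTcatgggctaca
Against the Slc5a10 exon, 54 of 81 bases were equal in Slc5a9 (66.7%) and 55 in Slc5a11 (67.9%). No transcript of Slc5a9 or Slc5a11 was examined for loss of this exon.

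Slc5a10 also has 2 start regions. Transcripts from the downstream start, among them Slc5a10-204 with its incomplete model, held 97.3% of TPM in replicate 1 and 98.3% in replicate 2 (97.0% and 98.2% of counts). Those from the upstream start held 2.72% and 1.65% of TPM, with 1128 and 578 counts. The 250 bases before each RefSeq start (GRCm38.p6, minus strand) are shown because the starts are used so unequally. They are chr11:61719986-61720235 for the downstream start and chr11:61720800-61721049 for the upstream start, and RefSeq's starts lie close to those of GENCODE without being equal to them. Common promoter motifs, named after the sequences, were searched on both strands, and capitals would mark a match.
Slc5a10 downstream start: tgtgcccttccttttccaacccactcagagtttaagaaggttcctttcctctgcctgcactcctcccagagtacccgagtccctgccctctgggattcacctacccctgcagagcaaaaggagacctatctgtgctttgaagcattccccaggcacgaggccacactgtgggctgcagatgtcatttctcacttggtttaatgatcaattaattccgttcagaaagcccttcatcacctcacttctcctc
Slc5a10 upstream start: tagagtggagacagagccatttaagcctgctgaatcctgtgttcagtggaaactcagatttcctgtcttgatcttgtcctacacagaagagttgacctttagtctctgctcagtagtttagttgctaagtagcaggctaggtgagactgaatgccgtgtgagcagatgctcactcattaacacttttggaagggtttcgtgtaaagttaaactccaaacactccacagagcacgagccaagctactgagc
The motifs were the TATA box (TATAAA), the CCAAT box (CCAAT) and the GC box (GGGCGG). Neither window held any of these, which says only that these letters are not in these windows. Of 32851 windows of this length, 12.4% held the TATA box, 33.8% the CCAAT box and 32.7% the GC box.

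Slc5a12 made a near-complete choice between alternative exons. Slc5a12-202 held 62.6% and 64.7% of TPM and 85.2% and 85.8% of counts, while Slc5a12-201, which replaces an 87-base exon by a 99-base exon further on, held 0.210% and 0.290% of TPM, with 60.5 and 114 counts. Transcripts with the 87-base exon together held 78.8% and 77.8% of TPM, and 19873 and 27392 counts. Slc5a6 and Slc5a8 carry an exon of 87 bases at the same place. These exons are shown because they are the part that differs between the coding forms of Slc5a12 and is common to the group. The 87-base exons lie at chr2:110637098-110637184 (plus strand) in Slc5a12, chr10:88918372-88918458 (plus strand) in Slc5a8 and chr5:31038014-31038100 (minus strand) in Slc5a6, and the 99-base exon at chr2:110637961-110638059 (plus strand), all on GRCm38. They are printed 5′ to 3′ from GENCODE M21, and capitals mark the 45 bases equal in all 87-base exons.
Slc5a12, 87-base exon: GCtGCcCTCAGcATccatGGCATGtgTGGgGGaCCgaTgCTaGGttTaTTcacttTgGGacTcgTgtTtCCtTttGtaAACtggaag
Slc5a8, 87-base exon: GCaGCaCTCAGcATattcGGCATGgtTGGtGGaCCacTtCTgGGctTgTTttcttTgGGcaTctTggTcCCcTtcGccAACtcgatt
Slc5a6, 87-base exon: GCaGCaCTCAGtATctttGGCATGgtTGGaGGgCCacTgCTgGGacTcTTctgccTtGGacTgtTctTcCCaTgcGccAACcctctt
Slc5a12, 99-base exon: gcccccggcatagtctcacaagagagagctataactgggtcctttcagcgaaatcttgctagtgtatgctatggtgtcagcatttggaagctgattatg
Against the 87-base exon of Slc5a12, 58 of 87 bases were equal in Slc5a8 (66.7%) and 52 in Slc5a6 (59.8%). The little-used 99-base exon, aligned to it with gaps, was equal at 52 of 78 aligned bases (66.7%), a share that gaps can raise.

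The rest of Slc5a12 lay in transcripts without a coding model. A 527-base processed transcript, Slc5a12-203, held 16.6% and 14.3% of TPM but 2.19% and 1.90% of counts, and Slc5a12-205, of 1693 bases, held 16.3% and 13.1% of TPM and 9.95% and 7.86% of counts. The retained-intron transcript Slc5a12-204 held 4.40% and 7.61% of TPM, and 2.39% and 4.05% of counts.

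Slc5a11 was divided among coding models. Slc5a11-207, which begins at the coding start, held 46.8% and 47.8% of TPM, and 49.7% and 51.8% of counts. Transcripts with a first exon upstream of it held 53.2% of TPM in replicate 1 and 47.5% in replicate 2, and 50.3% and 47.5% of counts. Most of that was the incomplete model Slc5a11-205, at 41.0% and 32.9% of TPM and 34.6% and 28.4% of counts. The deposited posterior SD of the Slc5a11-207 count was 93.3 and 94.2, beside 4520 and 4355 counts, and no order between the starts is read from these values.

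Slc5a9 was mixed between coding and noncoding models. The 3 complete coding transcripts, all with 2055 coding bases, held 62.4% and 63.5% of TPM and 79.8% and 75.3% of counts. Slc5a9-201 led them at 47.1% and 50.4% of TPM and 54.1% and 53.2% of counts. The 4 processed transcripts held 35.1% and 34.3% of TPM, and 19.5% and 24.1% of counts.

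For Slc5a6 the assignment of reads to transcripts was uncertain. Of its 7 transcripts, 5 have identifiers absent from GENCODE M21, and they held 84.3% and 90.0% of TPM and 67.5% and 80.3% of counts. They include the leading 568-base transcript, equal in length to the retained-intron model Slc5a6-204, and models of 3078 and 3248 bases, equal in length to coding models. The complete coding transcript Slc5a6-201 had 2160 counts in replicate 1 with a deposited posterior SD of 298, and 1058 counts in replicate 2 with an SD of 235. At the level of the gene the deposited SD was 0 in both libraries.

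**Figure D4:**
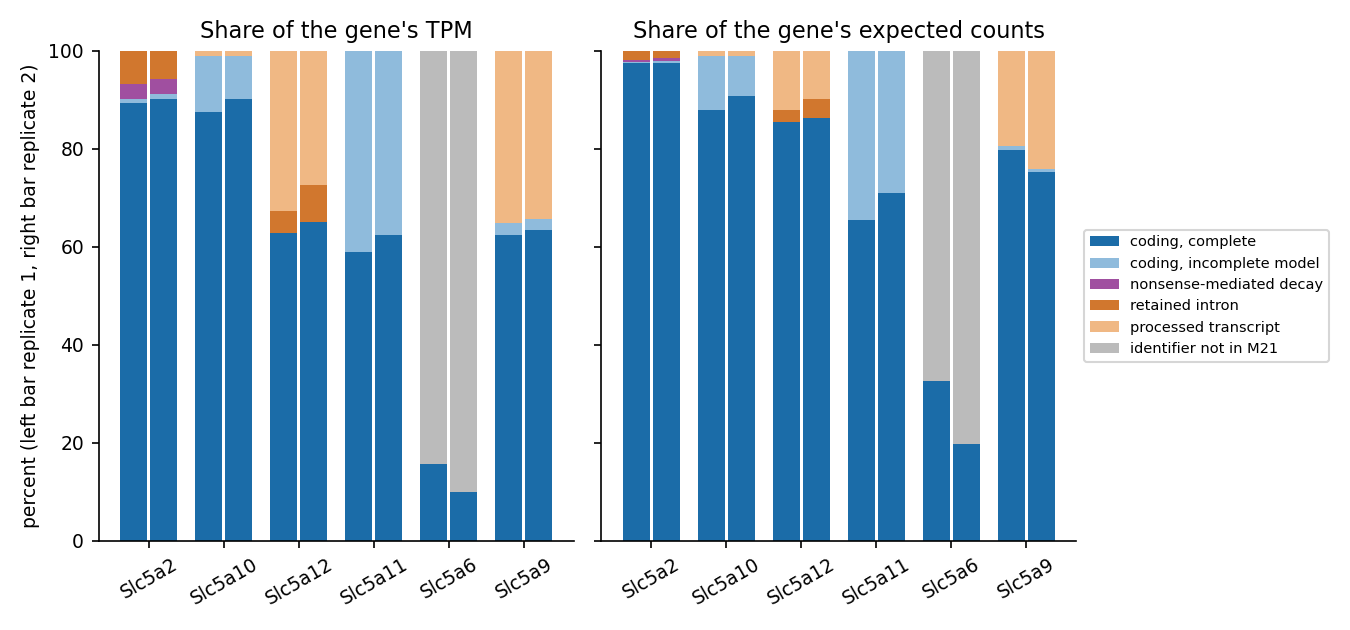
Share of each transcript type in the gene's TPM (left) and in its expected counts (right), in percent, for the 6 members with several transcripts, with replicate 1 as the left bar of each pair. Complete coding transcripts hold 97.4% and 97.6% of the Slc5a2 counts, and most of Slc5a6 is in transcripts whose identifiers are absent from M21.

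Some members share exonic bases with genes on the opposite strand. Slc5a2 overlaps BC017158 over 597 exonic bases (20.6% of its own), with BC017158 at 29.1 and 19.5 TPM. Slc5a10 overlaps Fam83g over 393 bases (16.6%), with Fam83g at 13.6 and 10.2 TPM, and Grap over 4 bases, with Grap at 8.58 and 10.2 TPM. Slc5a6 overlaps Atraid over 396 bases (9.92%), and Atraid, at 225 and 210 TPM, was higher than Slc5a6 itself. Slc5a6 also shared 920 of its 4041 31-base words with the gene Gm6157, for which no level was found under that name. The libraries are labelled as stranded, but whether counting used the strand is not given in the sources used here, so the levels of Slc5a6 in particular are uncertain.

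Other genes at the same loci were silent. Gm15936 and 5033423K11Rik in Slc5a1, Gm16222 in Slc5a4b and Gm10794 within 1 kb of Slc5a12 share no exonic bases with them and were listed at 0 TPM in both libraries. Slc5a1, Slc5a9 and Slc5a11 shared 0 of their 31-base words with any other gene.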

How the data were processed

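Kidney polyA RNA was sequenced in 2 libraries of 1 group. The authors estimated an expected count, TPM and FPKM for each gene and transcript from alignments to mm10 and annotation M4, per the deposited README records. The quantification program is not given in the sources used here. Per the file headers, the deposited tables also give posterior mean TPM, the posterior SD of each count, and isoform shares in percent. The junction and contig tables on mm9 were not analysed here.

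Names, positions, transcript types and exon sequences came from GENCODE M21 on GRCm38, and promoter windows from RefSeq on GRCm38.p6, where 7 of the 10 members matched. A symbol was found for 42462 of 43346 gene identifiers (98.0%), and 38 of 43 member transcripts matched by identifier. Numeric identifiers (26248 rows, none with a count) and 97 spike-in rows, which held 1.59% and 2.29% of all counts in replicates 1 and 2, were left out of library sizes.

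Expected counts were rounded. TMM factors (1.03 and 0.974) came from edgeR 4.0.16 under R 4.3.3, and size factors from DESeq2 1.42.0. The binomial test came from scipy 1.17.1, with a prior count of 0.5 for genes with a 0. It was run on simulated counts that held counting error only, so that check does not cover other spread between libraries. A count of 0 was read as at most 3 counts, 0.0446 and 0.0344 CPM in replicates 1 and 2. Coding sequences were aligned globally with Biopython 1.88, as no protein sequences were used here. Intervals are 95% exact.

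The members, the gene lists and the tests were chosen with earlier results of these data known. All 10 members are named. Of each other list every gene is counted, and at most the 4 highest and the 2 lowest are named with those that differ between libraries. Some genes that this rule would name are not reported here by name. Neighbouring genes and the 3 genes nearest in level to Slc5a2 are also named. Alternatives covered the scaling, the filters, the thresholds, the unit, posterior mean values and each library alone.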

Additional observations from a re-analysis of the deposited data

How the results depend on the processing

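The count of 8 detected members was the same under all 6 alternatives tried, and that of 0 members called different under all 4. The ratio of Slc5a2 to Slc5a1 in TPM was 26.4 without replicate 2 and 32.1 without replicate 1. With an absolute log2 ratio of 0.58 as the limit, the genes called different over the whole table rose from 1537 to 2739. The log2 ratio of Slc5a12 changed sign only on the TPM scale, from 0.18 to -0.02, and the other 8 members with counts kept theirs under each scaling. Rescaling TPM without mitochondrial genes, their nuclear copies and spike-ins moved 7 of 10 mean levels by more than their SD (Slc5a2 to 979 TPM). Weighing transcripts by counts, an alternative chosen after seeing the data, moved 5 of 9 leading shares, most of all that of Slc5a6, from 53.7% to 13.2%. Depth limits only Slc5a4a and Slc5a4b. No paired analysis was possible because there is 1 group.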

Other observations

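Promoter windows of 250 bases were at hand for 7 members in 9 windows, and none was at hand for Slc5a2, Slc5a9 or Slc5a12. The 9 windows differed in the number of CpG, a C followed by a G, where DNA methylation is found. The windows of both Slc5a6 starts held 20 CpG each and that of Slc5a8 held 17, where the median over 32851 windows was 6. The Slc5a1 window held 6 CpG, that of Slc5a4a 4, those of the Slc5a10 starts 3 each, and those of Slc5a11 and Slc5a4b 2 each. GC content ran from 45.6% at the upstream Slc5a10 start to 70.8% at a Slc5a6 start. The windows rich in CpG were those of the vitamin carrier and a monocarboxylate carrier. Slc5a8, at 18.2 TPM, was the lowest of the detected members, and Slc5a4a and Slc5a4b, below 1 TPM in both libraries, had windows with few CpG, as did Slc5a10 at 305 TPM. No test was run on these windows.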
